A study of Mus musculus with 6 samples.

Results

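The NF-kappaB family of transcription factors and its inhibitors were followed through 3 populations of mouse CD4 T cells. The family was taken as 10 genes chosen by name: the subunits Rel, Rela, Relb, Nfkb1 and Nfkb2, the cytoplasmic inhibitors Nfkbia and Nfkbie, and the nuclear IkappaB proteins Nfkbid, Nfkbiz and Bcl3. Of these, 9 had at least 1 annotated probe set on the Affymetrix Mouse430_2 array, 17 probe sets in all, out of 18193 genes with an annotated probe set. No probe set used here carries the name Nfkb1, so that gene was not analysed here. All 17 probe sets read above the filter level of 5.48 on every array (the median of all values), and all were tested.

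The cells came from BALB/c Rag1-/- hosts, which make no mature T or B cells of their own, that had been given wild-type natural regulatory T cells (nTreg) together with wild-type regulatory T cells induced in culture (iTreg). On day 125, CD4-stained cells of the spleen and mesenteric lymph nodes of 14 such mice were pooled and sorted on EGFP, which reports the regulatory T cell factor Foxp3, and on Thy1.1, the allelic mark of the cells of induced origin. The nTreg group was EGFP-positive without Thy1.1, the iTreg group was positive for both, and the ex-iTreg group carried Thy1.1 but no EGFP. Each group holds 2 arrays, 1 per replicate pool; whether the 2 pools of a group came from different mice is not said in the labels, so the p-values rest on a pool-to-pool spread that could be purely technical.

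NF-kappaB subunits bind DNA as dimers. Inhibitors of the IkappaB type hold the dimers in the cytoplasm until the IKK kinase complex marks the inhibitor for destruction, and several inhibitor genes are themselves switched on by NF-kappaB, which closes a feedback loop. Nfkb2 encodes a precursor that is processed in the non-canonical route, chiefly in company with Relb. In regulatory T cells c-Rel, the product of Rel, is known for its part in the induction of Foxp3 in the thymus, and the nuclear protein encoded by Nfkbid is known for promoting Foxp3 expression.

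The sort could not be checked on Foxp3, whose annotated probe set read between 3.99 and 4.29 on the 6 arrays, below the filter level. The Thy1 probe set is named for the gene and not for the Thy1.1 allele, so it does not check that mark. Thy1 read 11.48 and 11.49 in nTreg, 12.13 and 12.28 in iTreg and 11.85 and 11.87 in ex-iTreg arrays. The log2 sum of 10 T cell markers lay between 15.07 and 15.10, between 15.00 and 15.05 and between 14.87 and 14.88 in the same order. Among them Cd3d read 13.08, 13.12 and 12.96 and Cd4 8.89, 9.03 and 9.19 as means of nTreg, iTreg and ex-iTreg arrays. Of the 10 T cell markers, 1 was higher and 1 lower in iTreg minus nTreg arrays. The counts were 2 higher and 3 lower in ex-iTreg minus iTreg arrays, and 3 higher and 5 lower in ex-iTreg minus nTreg arrays. Myeloid markers were also detected. Their summed level, as log2 of the sum over 17 genes, lay between 13.10 and 13.11 in nTreg, between 13.64 and 13.70 in iTreg and between 13.07 and 13.10 in ex-iTreg arrays. In iTreg minus nTreg arrays 14 of these 17 were higher and 0 lower, and in ex-iTreg minus iTreg arrays 0 were higher and 15 lower. The group means of Spi1 (6.27, 6.47 and 6.31) and Lyz2 (10.12, 10.55 and 10.26) were above the filter level in all groups, while Itgam stayed below the filter level on every array. B cell markers Cd79a, Pax5, Blnk, Cr2 and Fcer2a stayed below that level too, whereas Cd79b read 7.66, 6.47 and 4.65. The 4 tested B cell markers did not all move as Cd79b did, with 1 higher and 2 lower in iTreg minus nTreg arrays. In ex-iTreg minus iTreg arrays 0 were higher and 3 lower, and in ex-iTreg minus nTreg arrays 0 and 2. Summed levels of 6 CD8 T and NK cell markers lay between 8.68 and 8.77 in nTreg, between 8.70 and 8.72 in iTreg and between 10.01 and 10.08 in ex-iTreg arrays. Of these 6, 4 were higher and 2 lower in ex-iTreg minus iTreg arrays, and 4 were higher and 1 lower in ex-iTreg minus nTreg arrays. Those of 4 B cell markers lay between 10.27 and 10.30, between 10.47 and 10.50 and between 10.03 and 10.11. Those of 4 dendritic cell markers lay between 7.90 and 7.92, between 7.83 and 7.87 and between 7.68 and 7.69, and those of 2 erythroid markers between 8.55 and 8.62, between 9.15 and 9.22 and between 8.40 and 8.61. Poly-A control RNAs averaged between 11.06 and 11.14 in nTreg, between 12.48 and 12.52 in iTreg and between 9.70 and 9.83 in ex-iTreg arrays. The 3-prime minus 5-prime signal of the Gapdh control was 0.15 on both nTreg arrays, 0.38 and 0.51 on the iTreg arrays and -0.0004 and -0.04 on the ex-iTreg arrays. The part of these markers and controls in the family's differences was not tested; in sorted pools, fewer cells expressing a gene and less RNA per cell cannot be told apart.

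Across the family, ex-iTreg arrays held less of nearly every member than nTreg arrays. Rel was lower in both populations of induced origin, Bcl3 was lower in ex-iTreg arrays relative to both populations that kept the reporter, and both Nfkbie probe sets and 2 of 3 Nfkbiz probe sets were lower in iTreg than in nTreg arrays and lower again in ex-iTreg arrays. Nfkbid was the member that moved the other way. In iTreg relative to nTreg arrays, 8 member probe sets were lower, 1 was higher and 8 did not pass the test, while 14.5% of all 23484 tested probe sets were called lower and 14.6% higher (limma, adjusted p under 0.05). In ex-iTreg relative to iTreg arrays, 14 were lower and 0 higher, against 19.3% lower and 17.7% higher of all tested probe sets. This count fell to 8 when ex-iTreg pool 2 was left out. In ex-iTreg relative to nTreg arrays, 15 were lower and 1 was higher, against 18.4% lower and 18.1% higher overall. In either direction, 29.1%, 37% and 36.4% of all tested probe sets were called in these comparisons. With 1 probe set per gene, the one with the highest mean, 4 genes were lower and 1 higher, then 6 lower and 0 higher, then 7 lower and 1 higher, of 9 genes in each comparison. The median difference over the 17 probe sets was -0.22, -0.41 and -0.78 log2 in these 3 comparisons, against 0.02, 0.00 and 0.03 over all tested probe sets. The 3 comparisons share arrays, and the probe sets of one gene share its transcript, so these counts are not independent of each other.

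A signed contrast was also tested, namely the ex-iTreg minus iTreg difference less the iTreg minus nTreg difference. Both differences keep their sign in it, so a call does not say which of them was larger in size. This contrast was called for 5 member probe sets, 1 higher (Rel) and 4 lower, and for 31.2% of all tested probe sets. Bcl3 and Nfkbiz (1457404_at) kept the call under every alternative run, as did Rel. Nfkb2 (1429128_x_at), at -0.50 ± 0.13 (adjusted p = 0.0328, limma), lost it when any array but nTreg pool 1 was left out (adjusted p from 0.0586 to 0.166, limma) and without the filter (adjusted p = 0.0812, limma). The other Nfkb2 probe set gave 0.15 ± 0.14 (adjusted p = 0.447, limma), and the mean over both gave -0.17 (adjusted p = 0.359, limma). Nfkbia (1449731_s_at), at -0.42 ± 0.13 (adjusted p = 0.0491, limma), lost it when any array was left out (adjusted p from 0.0603 to 0.22, limma), without the filter, with median centring and with the replicate block (adjusted p = 0.123, 0.0539 and 0.0788, limma). The other 4 Nfkbia probe sets did not pass, but 1438157_s_at and 1448306_at did when the variance prior followed expression (adjusted p = 0.0101 and 0.00108, limma with trend).

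**Figure D1:**
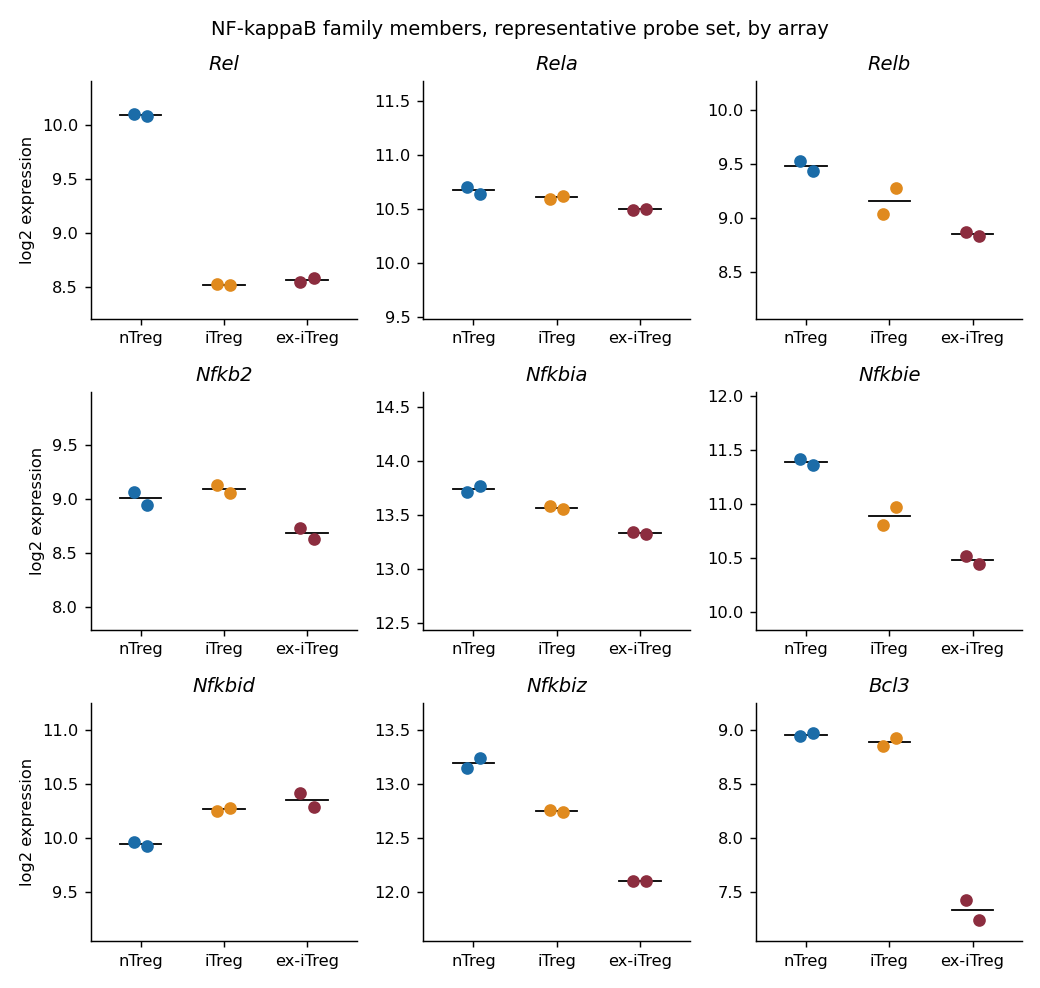
Log2 expression of the 9 measured family members on their representative probe set, 1 point per array (2 arrays per group) and a black line at the group mean; each vertical axis spans 2.2 log2 units around the gene's own middle. Rel drops from nTreg to both other groups, Bcl3 drops in the ex-iTreg group, Rela stays within 0.18 across group means, and Nfkbid is lowest in nTreg arrays.

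The promoters of members with different patterns are shown because this family is known to act on its own genes. Each is the 250 bases before the annotated start in RefSeq on build GRCm38.p6, read 5′ to 3′ along the gene's own strand. Capitals mark each match to the kappaB-like motif, which was GGG, then any 3 bases, then TTCC, searched on both strands; no matches overlapped.
Rel, chr11:23770970-23771219, minus strand: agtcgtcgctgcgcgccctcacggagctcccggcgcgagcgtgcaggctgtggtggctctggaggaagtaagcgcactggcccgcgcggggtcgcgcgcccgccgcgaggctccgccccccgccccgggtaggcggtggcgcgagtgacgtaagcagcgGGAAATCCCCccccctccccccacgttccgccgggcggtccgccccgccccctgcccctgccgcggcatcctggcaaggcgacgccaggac
Nfkb2 (its most upstream start), chr19:46304487-46304736, plus strand: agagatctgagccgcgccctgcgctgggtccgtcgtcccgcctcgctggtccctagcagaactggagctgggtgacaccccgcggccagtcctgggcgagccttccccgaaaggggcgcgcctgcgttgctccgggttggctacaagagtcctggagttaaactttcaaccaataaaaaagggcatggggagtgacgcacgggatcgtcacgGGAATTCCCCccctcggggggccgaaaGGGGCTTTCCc
Nfkbia, chr12:55492648-55492897, minus strand: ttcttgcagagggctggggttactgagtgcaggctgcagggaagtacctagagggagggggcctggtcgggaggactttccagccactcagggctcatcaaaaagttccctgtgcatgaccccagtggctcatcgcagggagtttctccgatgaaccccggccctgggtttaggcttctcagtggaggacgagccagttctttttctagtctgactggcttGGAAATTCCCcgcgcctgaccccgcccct
Nfkbie, chr17:45555450-45555699, plus strand: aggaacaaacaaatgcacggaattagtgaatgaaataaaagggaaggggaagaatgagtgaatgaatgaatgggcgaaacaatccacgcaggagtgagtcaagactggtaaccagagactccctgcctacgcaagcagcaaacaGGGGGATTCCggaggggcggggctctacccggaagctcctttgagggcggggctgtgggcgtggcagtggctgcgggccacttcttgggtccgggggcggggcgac
Bcl3, chr7:19822756-19823005, minus strand: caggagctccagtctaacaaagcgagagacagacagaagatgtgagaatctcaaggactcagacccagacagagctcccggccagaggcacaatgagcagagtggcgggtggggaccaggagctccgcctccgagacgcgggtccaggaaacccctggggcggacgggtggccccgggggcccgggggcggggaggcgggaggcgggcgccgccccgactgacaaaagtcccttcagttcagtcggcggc

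Windows were held for 7 of the 10 members (Rel, Rela, Nfkb2, Nfkbia, Nfkbie, Nfkbid and Bcl3), 11 windows in all because Nfkb2 and Nfkbid have several starts. A match was found in 7 of the 11, while 4.65% of all 32851 windows of the same length held one. Counted from a match's first base, Rel had its match 91 bases before the start and Nfkbia 29 bases before it. Nfkbie had its match 106 bases before the start, and the Nfkb2 window printed has a match at 38 and another at 11 bases. The other Nfkb2 windows held 1 each and 1 of 3 Nfkbid windows held one; the windows of Rela and Bcl3 held none. A match describes letters in the window and does not show binding.

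Among subunits that carry a transactivation domain, Rel had the widest range of group means. Rel (probe set 1420710_at), which encodes c-Rel, read 10.11 and 10.09 in nTreg, 8.53 and 8.52 in iTreg and 8.55 and 8.59 in ex-iTreg arrays. The nTreg arrays stood apart from all others, and the pools of a group lay within 0.04 of each other. In iTreg relative to nTreg arrays Rel was lower by a difference of -1.57 ± 0.06 log2 (SE, n = 2 per group; adjusted p = 7.6e-05, limma), a 2.97-fold difference. Relative to nTreg arrays, ex-iTreg arrays differed by -1.53 ± 0.06 (adjusted p = 1.33e-05, limma). Between ex-iTreg and iTreg arrays the difference was 0.04 ± 0.06, with a 95% interval from -0.10 to 0.19 (adjusted p = 0.621, limma). With signs kept, the ex-iTreg minus iTreg difference lay above the iTreg minus nTreg difference by 1.61 ± 0.11 (adjusted p = 0.000364, limma). In that direction 15% of all tested probe sets were called. All these calls for Rel were kept under every alternative run.

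Rela (1419536_a_at), the most widely used transactivating subunit, read 10.70 and 10.64 in nTreg, 10.59 and 10.62 in iTreg and 10.49 and 10.50 in ex-iTreg arrays. None of its differences passed the test. It differed by -0.06 in iTreg minus nTreg (95% interval -0.22 to 0.09), by -0.11 in ex-iTreg minus iTreg (-0.27 to 0.04) and by -0.18 in ex-iTreg minus nTreg arrays (-0.33 to -0.03; adjusted p = 0.07, limma). When the variance prior was allowed to follow expression, the last of these passed (adjusted p = 0.00651, limma with trend).

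Relb (1417856_at), the partner of the processed Nfkb2 product, read 9.52 and 9.44 in nTreg, 9.03 and 9.27 in iTreg and 8.87 and 8.83 in ex-iTreg arrays. Its group means fell in the order nTreg, iTreg, ex-iTreg, but the iTreg pools lay 0.24 apart, wider than the pools of either other group. Between ex-iTreg and nTreg arrays the difference was -0.63 ± 0.09 (adjusted p = 0.00296, limma). The smaller differences next to it were -0.33 ± 0.09 for iTreg minus nTreg (adjusted p = 0.0423, limma) and -0.30 ± 0.09 for ex-iTreg minus iTreg (adjusted p = 0.0459, limma). Leaving out any 1 array other than iTreg pool 2 ended the first call, with adjusted p between 0.0779 and 0.159 (limma), and any other than iTreg pool 1 ended the second, with adjusted p between 0.0565 and 0.193 (limma). With the replicate number as a block, the adjusted p was 0.0665 and 0.0696 (limma). Both were also lost without the filter (adjusted p = 0.0871 and 0.093, limma) and with only the 2 groups fitted (adjusted p = 0.0779 and 0.0565, limma), and the first with T cell marker centring (adjusted p = 0.0631, limma).

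Nfkb2, the precursor subunit, was measured by 2 probe sets that parted at the first comparison. On 1425902_a_at it read 8.93 and 8.84 in nTreg, 8.39 and 8.45 in iTreg and 8.19 and 8.02 in ex-iTreg arrays. On 1429128_x_at, whose suffix marks probes that may also match other transcripts, it read 9.07 and 8.94, 9.13 and 9.06, and 8.73 and 8.63. Only ex-iTreg arrays were below both other groups on both. Between iTreg and nTreg arrays the difference was -0.47 ± 0.08 on the former (adjusted p = 0.00875, limma) and 0.09 ± 0.08 on the latter (adjusted p = 0.424, limma). Against iTreg arrays, ex-iTreg arrays were lower on both, by -0.31 ± 0.08 and -0.41 ± 0.08 (adjusted p = 0.0258 and 0.00787, limma). The former call was lost without iTreg pool 1, iTreg pool 2 or ex-iTreg pool 2 (adjusted p = 0.0725, 0.115 and 0.142, limma) and without the filter (adjusted p = 0.0607, limma), the latter without ex-iTreg pool 2 (adjusted p = 0.0576, limma). Over ex-iTreg minus nTreg arrays the differences were -0.78 ± 0.08 and -0.32 ± 0.08 (adjusted p = 0.000693 and 0.0189, limma). The latter was lost without nTreg pool 1, ex-iTreg pool 1 or ex-iTreg pool 2 (adjusted p = 0.0744, 0.0532 and 0.112, limma) and when arrays were centred on T cell markers (adjusted p = 0.0611, limma).

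**Figure D2:**
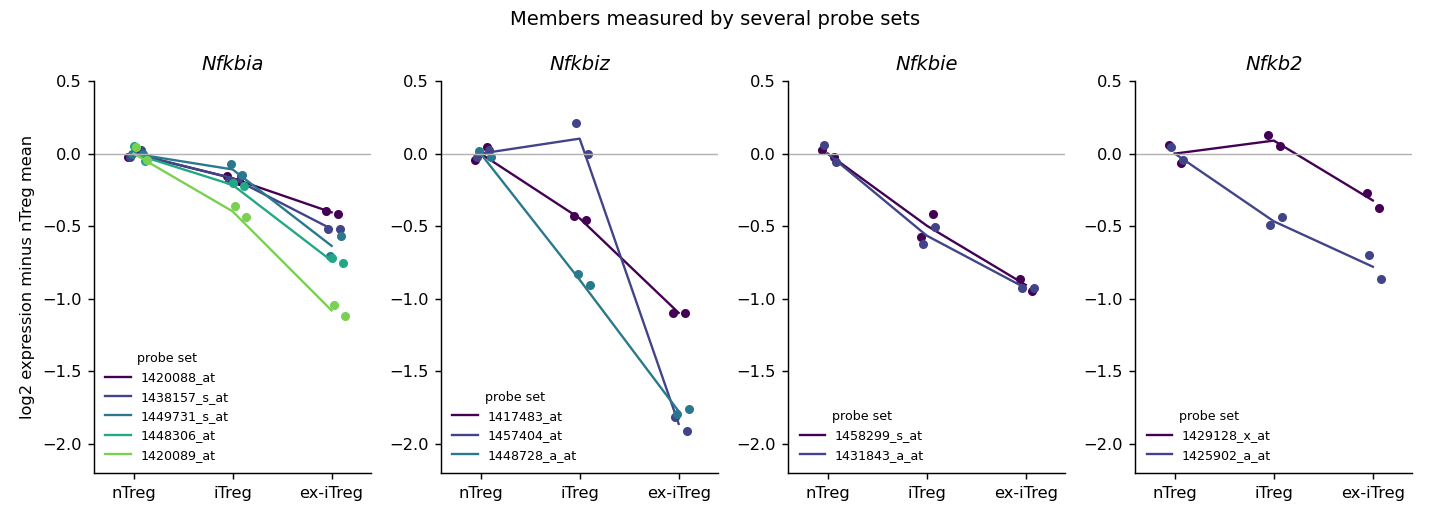
Log2 expression minus the probe set's own nTreg mean for the 4 members measured by several probe sets; points are single arrays (2 per group) and lines join group means. All 5 Nfkbia and both Nfkbie probe sets decline through iTreg to ex-iTreg arrays, while 1 of 3 Nfkbiz and 1 of 2 Nfkb2 probe sets read no lower in iTreg than in nTreg arrays on average.

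The cytoplasmic inhibitors among the members, Nfkbia and Nfkbie, were lower in ex-iTreg arrays. Nfkbia encodes IkappaB-alpha, an inhibitor that is rapidly resynthesised after NF-kappaB activation. On 1420088_at it read 13.72 and 13.77 in nTreg, 13.59 and 13.56 in iTreg and 13.35 and 13.33 in ex-iTreg arrays. On 1420089_at it read 8.37 and 8.27, 7.96 and 7.88, and 7.27 and 7.20. Group means fell in the order nTreg, iTreg, ex-iTreg on all 5 of its probe sets. In ex-iTreg minus nTreg arrays the 5 differences ran from -0.40 ± 0.06 to -1.08 ± 0.07, and the adjusted p was at most 0.00343 (limma). Of the 5, 4 had group means between 12.45 and 13.74, on arrays whose highest value lay between 14.48 and 14.54, and these 4 gave the smaller differences. In ex-iTreg minus iTreg arrays all 5 were lower, from -0.23 ± 0.06 to -0.68 ± 0.07 (adjusted p from 0.000904 to 0.0273, limma). The call on 1420088_at was lost without either iTreg or either ex-iTreg array (adjusted p from 0.0848 to 0.129, limma) and with the replicate block (adjusted p = 0.0515, limma). It was also lost with T cell marker centring and without the filter (adjusted p = 0.0547 and 0.0887, limma). The calls on the other 4 were kept under every alternative run. Between iTreg and nTreg arrays only 1420089_at passed, at -0.40 ± 0.07 (adjusted p = 0.00943, limma), and not without iTreg pool 2 (adjusted p = 0.0581, limma). The remaining 4 differed by -0.11 to -0.22 (adjusted p from 0.0547 to 0.307, limma). With a variance prior that followed expression, all 5 passed (limma with trend), and with quantile normalization 1420088_at and 1438157_s_at passed (adjusted p = 0.033 and 0.0283, limma). With a stricter filter 1448306_at passed (adjusted p = 0.0441, limma). The mean over the gene's probe sets passed too, at -0.21 (adjusted p = 0.0429, limma).

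Nfkbie encodes IkappaB-epsilon, a later-acting inhibitor that binds chiefly Rela and c-Rel dimers. On 1458299_s_at it read 11.41 and 11.36 in nTreg, 10.81 and 10.97 in iTreg and 10.52 and 10.44 in ex-iTreg arrays. On 1431843_a_at it read 9.09 and 8.98, 8.41 and 8.53, and 8.11 and 8.11. On both probe sets the group means fell in the order nTreg, iTreg, ex-iTreg. Their iTreg minus nTreg differences were -0.50 ± 0.08 and -0.57 ± 0.08 (adjusted p = 0.00643 and 0.00327, limma), calls kept under every alternative run. The ex-iTreg minus iTreg differences were -0.41 ± 0.08 and -0.36 ± 0.08 (adjusted p = 0.00909 and 0.0115, limma). The former was lost without ex-iTreg pool 2 (adjusted p = 0.0628, limma), the latter without iTreg pool 2, ex-iTreg pool 1 or ex-iTreg pool 2 (adjusted p = 0.0661, 0.0627 and 0.0627, limma). From nTreg to ex-iTreg arrays the fold was 1.87 and 1.90.

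The nuclear IkappaB proteins act on promoters rather than as cytoplasmic anchors, and they did not move together. Bcl3, which binds homodimers of the processed Nfkb1 and Nfkb2 products, read 8.94 and 8.97 in nTreg and 8.84 and 8.92 in iTreg arrays. In ex-iTreg arrays it read 7.43 and 7.24. Only the ex-iTreg arrays stood apart. The ex-iTreg minus iTreg difference was -1.55 ± 0.08 (adjusted p = 7.81e-05, limma), a 2.92-fold difference, and that of ex-iTreg minus nTreg was -1.62 ± 0.08 (adjusted p = 3.52e-05, limma). Between iTreg and nTreg arrays Bcl3 differed by -0.07 ± 0.08 (95% interval -0.27 to 0.13; adjusted p = 0.55, limma), and by 0.01 when arrays were centred on T cell markers. The ex-iTreg minus iTreg difference was lower than the iTreg minus nTreg difference by a contrast of -1.48 ± 0.14 (adjusted p = 0.00121, limma), where 16.2% of all tested probe sets were called in that direction. Those calls were kept under every alternative run. Bcl3 and Relb lie on chromosome 7 with 10 protein-coding gene models of RefSeq between them, and their differences in ex-iTreg minus iTreg arrays were -1.55 and -0.30.

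Nfkbiz encodes IkappaB-zeta, an inducible co-activator known in T cells for its part in Th17 programmes. On 1417483_at it read 13.15 and 13.25 in nTreg, 12.77 and 12.74 in iTreg and 12.10 and 12.10 in ex-iTreg arrays. On 1448728_a_at it read 11.71 and 11.67, 10.86 and 10.78, and 9.90 and 9.93. On those probe sets the group means fell in the order nTreg, iTreg, ex-iTreg. On 1457404_at it read 11.38 and 11.43 in nTreg, 11.61 and 11.40 in iTreg and 9.59 and 9.50 in ex-iTreg arrays, so that nTreg and iTreg arrays overlapped. The iTreg minus nTreg differences were -0.45 ± 0.07, -0.87 ± 0.07 and 0.10 ± 0.09 in this order (adjusted p = 0.00461, 0.000445 and 0.424, limma). Against iTreg arrays, ex-iTreg arrays gave lower values on all 3, by -0.65 ± 0.07, -0.91 ± 0.07 and -1.97 ± 0.09 (adjusted p = 0.000786, 0.000238 and 4.22e-05, limma). In ex-iTreg minus nTreg arrays the folds were 2.14, 3.42 and 3.64. The calls for Nfkbiz held under every alternative run. The contrast of the ex-iTreg minus iTreg difference with the iTreg minus nTreg difference was -2.07 ± 0.15 on 1457404_at (adjusted p = 0.000531, limma). It was -0.21 ± 0.11 and -0.04 ± 0.11 on the other probe sets (adjusted p = 0.216 and 0.831, limma). The former passed when the variance prior followed expression (adjusted p = 0.0162, limma with trend). The mean over the gene's probe sets, which includes 1457404_at, gave -0.77 (adjusted p = 0.00505, limma).

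Nfkbid (1436074_at) encodes IkappaBNS and was the member that rose. It read 9.96 and 9.92 in nTreg, 10.25 and 10.28 in iTreg and 10.41 and 10.28 in ex-iTreg arrays. Both populations of induced origin had higher group means than the nTreg arrays. In ex-iTreg minus nTreg arrays the difference was 0.41 ± 0.07 (adjusted p = 0.00588, limma), kept under every alternative run. The iTreg minus nTreg difference was 0.32 ± 0.07 (adjusted p = 0.0191, limma), a call that ended when nTreg pool 2 (adjusted p = 0.0675, limma) or either iTreg array (adjusted p = 0.069 and 0.0912, limma) was left out, or no filter was set (adjusted p = 0.0524, limma). Between ex-iTreg and iTreg arrays it differed by 0.09 ± 0.07 (95% interval -0.09 to 0.26; adjusted p = 0.392, limma).

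**Figure D3:**
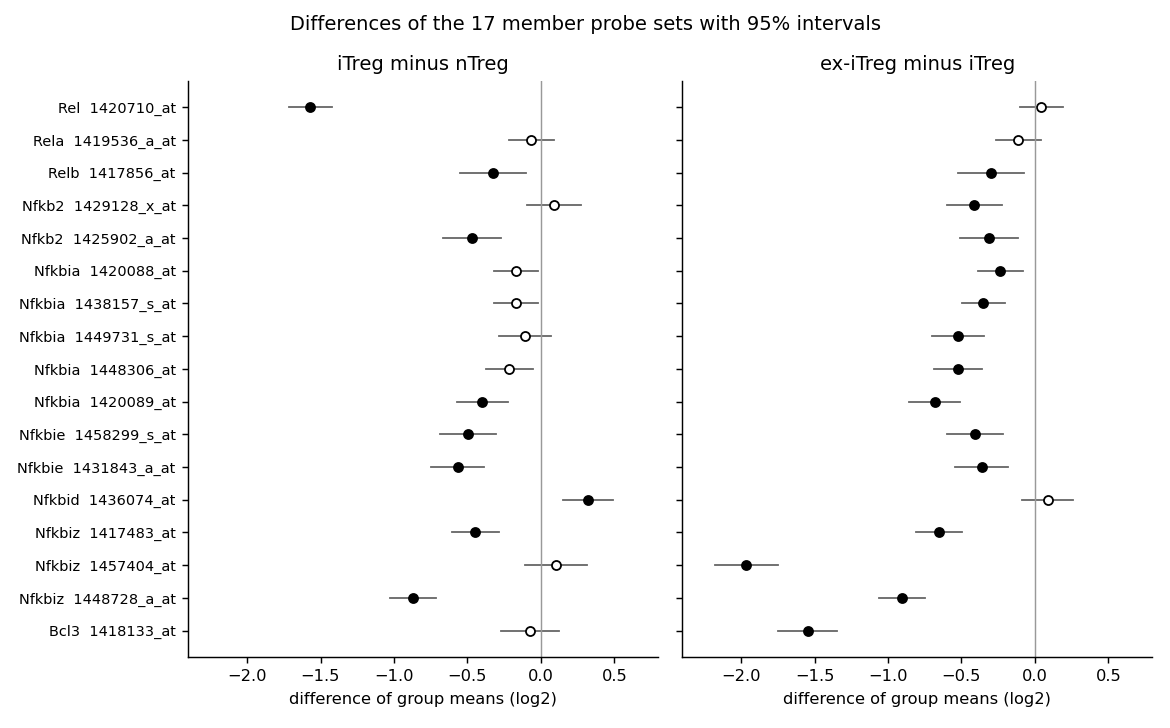
Difference of group means in log2 units for the 17 member probe sets in iTreg minus nTreg (left) and ex-iTreg minus iTreg arrays (right); bars are 95% intervals from limma (n = 2 arrays per group), and filled points passed at an adjusted p under 0.05. Rel stands out on the left at -1.57, and Bcl3 at -1.55 and Nfkbiz probe set 1457404_at at -1.97 on the right.

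The genes most like Bcl3, the member with the widest range of group means on its representative probe set, were Irf8, Arnt2 and Lta. Likeness was the Euclidean distance between the 6 array values after each gene's mean was removed, over 10617 genes. Irf8, a transcription factor of the interferon regulatory family, lay at a distance of 0.05 log2 units, with group means of 8.38, 8.35 and 6.79 in nTreg, iTreg and ex-iTreg arrays. Arnt2 lay at 0.17 and Lta, which encodes lymphotoxin alpha, at 0.20. For Rel, added after its values were seen, the nearest genes were Foxa1 at 0.13, Stx11 at 0.14 and Gramd1c at 0.15. Stx11, a syntaxin of lymphocyte granule release, read 10.82, 9.28 and 9.36 as group means, while Foxa1 read 5.50, 3.82 and 3.96, under the filter level outside nTreg arrays. All 6 arrays share their groups, so such distances describe a common pattern over 3 populations and carry no test.

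Upstream of the family, the IKK module and its antigen receptor route were mixed. Of 17 tested genes, 5 were higher and 5 lower in iTreg minus nTreg arrays, 4 and 4 in ex-iTreg minus iTreg arrays and 4 and 3 in ex-iTreg minus nTreg arrays, with medians of 0.04, -0.06 and 0.03. Of all tested probe sets, 29.1%, 37% and 36.4% were called in either direction in these comparisons. The first count of 10 called fell to 6, 6, 5 and 3 without nTreg pool 1, nTreg pool 2, iTreg pool 1 and iTreg pool 2. The second, of 8, fell to 5 without either ex-iTreg array, and the third, of 7, to 4. Malt1, a paracaspase of antigen receptor signalling, had group means of 11.21, 10.85 and 11.79 in nTreg, iTreg and ex-iTreg arrays. It fell in iTreg minus nTreg arrays by 0.36 on the log2 scale and rose by 0.94 ± 0.06 in ex-iTreg minus iTreg arrays (adjusted p = 0.000174, limma). Its other probe sets rose there by 1.22 and 1.76. Prkcq, the protein kinase C isoform of the T cell receptor synapse, was 0.62 ± 0.06 higher in iTreg than in nTreg arrays (adjusted p = 0.00116, limma). The adaptors Tradd and Traf5 were lower in ex-iTreg than in iTreg arrays, by differences of -0.84 ± 0.10 and -0.46 ± 0.07 (adjusted p = 0.00166 and 0.00312, limma), but 2 further Tradd probe sets gave -0.16 and 0.18 there (adjusted p = 0.342 and 0.307, limma).

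In the non-canonical route and among IKK-related kinases, 8 genes were tested. In iTreg minus nTreg arrays 2 were lower, Birc2 and Tank, and 0 higher. For Birc2, a ubiquitin ligase that restrains the kinase NIK, the difference was -0.67 ± 0.06 (adjusted p = 0.000909, limma), and for Tank, an adaptor, -0.60 ± 0.07 (adjusted p = 0.00221, limma). In ex-iTreg minus iTreg arrays 3 were higher, Map3k14, Tbk1 and Azi2, and 2 lower, Tank and Traf2. This count of 5 called fell to 1, 1, 1 and 2 without ex-iTreg pool 1, ex-iTreg pool 2, iTreg pool 2 and iTreg pool 1, to 2 with the replicate block or no filter, and to 3 with median centring. Map3k14, which encodes NIK, the kinase that starts Nfkb2 processing, read 7.62, 7.63 and 8.50 as group means and rose by 0.88 ± 0.07 (adjusted p = 0.000366, limma). A second probe set for it gave 0.42 ± 0.13 (adjusted p = 0.0472, limma). For Tank, a second probe set gave 0.06 in ex-iTreg minus iTreg arrays (adjusted p = 0.713, limma). In ex-iTreg minus nTreg arrays 2 were higher and 3 lower, Birc3 among the latter at -0.40 ± 0.07 (adjusted p = 0.00454, limma). Medians were -0.15, 0.08 and -0.08. Over all tested probe sets, 29.1%, 37% and 36.4% were called in either direction in these 3 comparisons.

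Other inhibitors and deubiquitinases, 14 genes, leaned lower in iTreg arrays. Between iTreg and nTreg arrays 6 were lower and 0 higher (median -0.13), a count that fell to 1 without iTreg pool 2. In ex-iTreg minus iTreg arrays 5 were lower and 3 higher (median -0.12), and the 8 called fell to 4, 2, 5 and 3 without ex-iTreg pool 1, ex-iTreg pool 2, iTreg pool 1 and iTreg pool 2. In ex-iTreg minus nTreg arrays 5 were lower and 1 higher (median -0.17), and the 6 called fell to 3 without nTreg pool 1, without ex-iTreg pool 2 or without the filter. Zc3h12a, which encodes the ribonuclease Regnase-1, read 9.29, 8.87 and 8.51 as group means and differed by -0.78 ± 0.07 between ex-iTreg and nTreg arrays (adjusted p = 0.000441, limma); its second probe set gave -0.53 ± 0.08 (adjusted p = 0.00366, limma). Tnip1, a partner of the deubiquitinase A20, differed by -0.66 ± 0.08 in the same comparison (adjusted p = 0.00103, limma). Otud7b, a deubiquitinase, differed there by -0.51 ± 0.07 (adjusted p = 0.00188, limma), and 2 of its 3 other probe sets did not pass. Tax1bp1, another A20 partner, was instead 0.49 ± 0.07 higher in ex-iTreg than in iTreg arrays (adjusted p = 0.00234, limma), a rise that none of its 3 other probe sets passed. Beside the counts of this list, 14.5%, 19.3% and 18.4% of all tested probe sets were lower in the 3 comparisons. The shares called higher were 14.6%, 17.7% and 18.1%.

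Most receptors that signal to NF-kappaB were lower in ex-iTreg arrays. Of 17 tested, 7 were lower and 3 higher in iTreg minus nTreg arrays, 12 and 3 in ex-iTreg minus iTreg arrays and 10 and 3 in ex-iTreg minus nTreg arrays, with medians of -0.07, -0.63 and -0.62. Of all tested probe sets, 14.5%, 19.3% and 18.4% were lower and 14.6%, 17.7% and 18.1% higher in these comparisons. Tnfrsf9 (4-1BB), a costimulatory receptor, read 10.00, 8.64 and 6.44 as group means, a difference of -3.56 ± 0.08 between ex-iTreg and nTreg arrays (adjusted p = 1.62e-06, limma). Tnfrsf4 (OX40) and Tnfrsf18 (GITR), receptors of the same family, differed there by -1.98 ± 0.07 and -1.77 ± 0.06 (adjusted p = 7.75e-06 and 8.4e-06, limma). Cd27, also of that family, differed by -1.66 ± 0.07 (adjusted p = 1.49e-05, limma). Tnfrsf1a and Tlr1, which myeloid cells also express, were higher in iTreg than in nTreg arrays by 0.98 ± 0.07 and 0.67 ± 0.06 (adjusted p = 0.000328 and 0.000975, limma). In that comparison 14 of 17 myeloid markers were higher too. The 12 receptors lower in ex-iTreg minus iTreg arrays included Tnfrsf1a, Cd40, Tlr1, Tlr2, Tlr4 and Tlr7, and 15 of 17 myeloid markers were lower there. Tlr4 read 5.33, 5.48 and 4.65 as group means, with none above the filter level. Tlr7 read 4.84 in ex-iTreg arrays, under that level. The part of myeloid cells in the receptor differences was not tested.

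Among 25 tested targets outside the family, 8 were lower and 2 higher in iTreg minus nTreg arrays, a count of 10 that fell to 6 without iTreg pool 2. In ex-iTreg minus iTreg arrays 14 were lower and 4 higher, and in ex-iTreg minus nTreg arrays 15 were lower and 4 higher, with medians of -0.11, -0.27 and -0.39 over the 3 comparisons. Of all tested probe sets, 14.5%, 19.3% and 18.4% were lower and 14.6%, 17.7% and 18.1% higher in these comparisons. Cd83, a surface glycoprotein of activated cells, read 11.21, 9.10 and 8.14 as group means, a difference of -2.12 ± 0.07 in iTreg minus nTreg arrays (adjusted p = 4.29e-05, limma). Il2ra, the alpha chain of the receptor for IL-2, read 10.02, 9.95 and 6.77 as group means, so that ex-iTreg arrays differed from iTreg arrays by -3.18 ± 0.08 (adjusted p = 5.98e-06, limma). The 4 that rose in ex-iTreg minus iTreg arrays were all secreted: the chemokines Ccl3, Ccl4 and Ccl5 and the cytokine Il2. Ccl5 rose by 2.52 ± 0.06 (adjusted p = 6.4e-06, limma), and Il2 rose from a mean under the filter level (4.32) to 7.75. Of the 25, Birc3 and Tnfaip3 also stand in the lists above, and Vcam1, at 7.84, 9.17 and 8.02, among the myeloid markers.

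**Figure D4:**
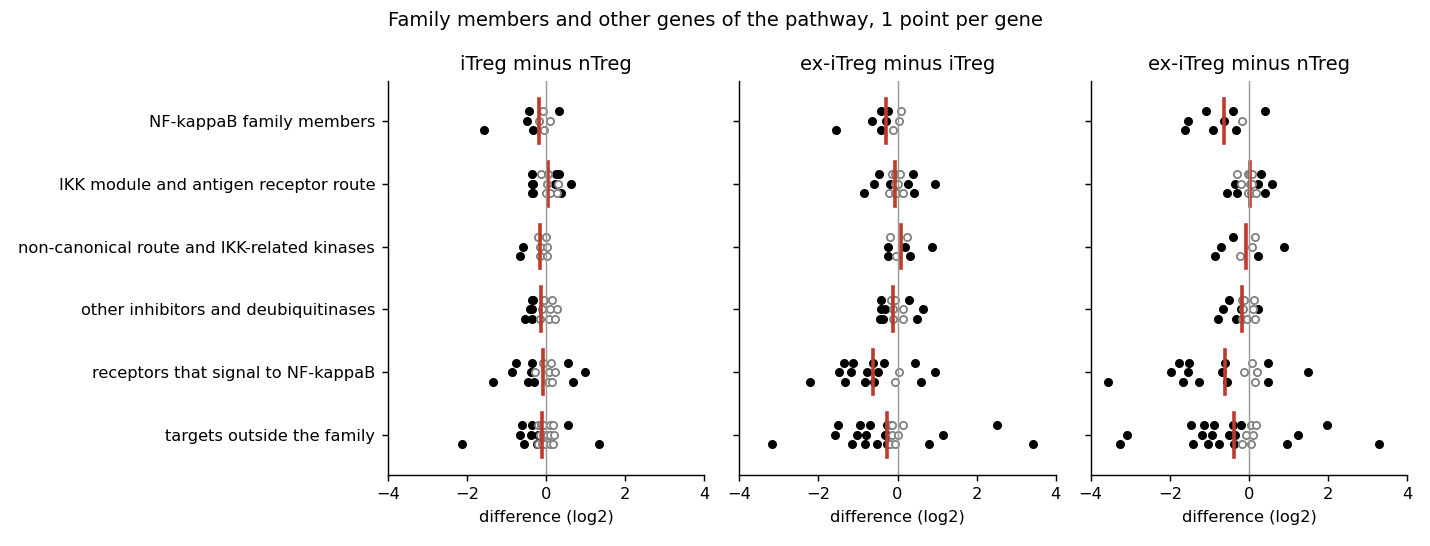
Differences in log2 units for the 9 family members and the tested genes of 5 pathway lists, 1 point per gene on its representative probe set, in the 3 comparisons; filled points passed at an adjusted p under 0.05 (limma, n = 2 arrays per group) and red bars are list medians. Members and receptors lean to the left in both comparisons with ex-iTreg arrays, where their medians are -0.30 and -0.63 against iTreg and -0.63 and -0.62 against nTreg arrays, while the IKK module stays centred near 0.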

How the data were processed

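Expression was read from the deposited table of log2 values, 1 per probe set and array, which the authors made with the RMA method, as named by the submitters' processing notes; which software ran it is not stated there. RMA equalises the arrays' distributions, so a shift shared by all transcripts cannot be seen. Of 45101 probe sets, 64 were controls. Probe sets were named through GEO's platform annotation, with 1 symbol for 34945 probe sets, several for 932 and none for 9160. All 9 measured members matched a RefSeq gene by Entrez identifier.

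The 23484 probe sets (11019 genes) that exceeded 5.48 on 2 or more of the 6 arrays were tested. Differences were fitted with limma 3.58.1 in R 4.3.3 (lmFit, eBayes), 1 model with a mean per group, and p-values adjusted by Benjamini-Hochberg over all tested probe sets, with a threshold of 0.05. The spread had 3 residual and 3.37 prior degrees of freedom; 2 arrays against 2 cannot give an exact two-sided p below 0.33, so calls rest on the pooled spread. The number of arrays limits the precision. A gene was represented by its tested probe set with the highest mean. Every member was named, and up to 4 genes of each other list by largest t statistic; genes named to account for a short count, and the contrast of the 2 adjacent differences, were chosen after values were seen. Members and lists were chosen with earlier results of these data known. The model was tested on simulated data. Alternatives were other filters, scalings, priors, a replicate block, 2 groups alone and each array left out.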

Additional observations from a re-analysis of the deposited data

How the results depend on the processing

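With 1 probe set per gene, the members called were 5, 6 and 8 of 9 in iTreg minus nTreg, ex-iTreg minus iTreg and ex-iTreg minus nTreg arrays, in place of 9, 14 and 16 of 17; fewer probe sets were counted. With an array left out, the members called ranged from 7 to 8, from 8 to 13 and from 15 to 16 in these comparisons. The counts over all tested probe sets ranged from 3420 to 5380, from 4971 to 9104 and from 5243 to 7928, against 6826, 8694 and 8558. With the replicate block, 8, 12 and 16 member probe sets were called. No shared deviation by replicate number was seen, as pool differences correlated between groups with r = -0.01, -0.09 and -0.04 across probe sets. This cannot show whether pools of equal number came from the same mice. Centring on T cell markers turned the split of all calls in iTreg minus nTreg arrays from 3420 higher and 3406 lower to 5571 and 2616, and in ex-iTreg minus nTreg arrays from 4243 and 4315 to 7052 and 3299. It moved the median of all tested probe sets by 0.08, 0.02 and 0.10. It left 8, 13 and 15 member probe sets called, 7, 13 and 14 of them lower. Of 971 alternative values of member differences, 900 kept their direction or stayed uncalled, 58 lost a call, 13 gained one and 0 called differences reversed. Of 462 alternative list counts, 73 moved by over 1.5 times. Foxp3, and Il2 in nTreg and iTreg arrays, read below the filter level, so their levels there are not resolved.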
